A study of Mus musculus with 16 samples.

Results

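Casein kinase 1 (CK1) mRNAs were compared in RNA-immunoprecipitation and sequencing (RIP-seq) of the RNA-binding protein CPEB4 in mouse bone marrow-derived macrophages (BMDMs). The family was taken by gene symbol and held 6 genes, Csnk1e, Csnk1d, Csnk1a1, Csnk1g1, Csnk1g2 and Csnk1g3, of 14925 genes with a symbol. They had 18 distinct annotated 3′-UTR regions, of 26892 in all. Csnk1e was selected on its reads in the untreated RIPs, 193 in the wild-type (WT) library and 7 in the CPEB4 knockout (KO) library, and the others as its relatives. That difference is therefore given as a description, as is every value that rests on these reads, whereas the RIPs after lipopolysaccharide (LPS), the Inputs and the other 5 genes were not part of that choice.

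The WT cells (culture 76) and the CPEB4 KO cells (culture 73, from mice that lack Cpeb4 in the whole body) shared the strain label C57BL/6J 129. Both came from femurs of adult mice and were grown for a week in L-cell conditioned medium, a source of the macrophage growth factor M-CSF. They were left untreated or received LPS, a bacterial cell wall component, at 10 ng/ml for 9 h. Formaldehyde-fixed lysates gave the RNA bound by an anti-CPEB4 antibody (RIP) and the total RNA (Input), and ribosomal RNA was depleted in the Inputs. The 16 samples were 8 libraries run on lanes 7 and 8 and summed over the lanes in the deposited columns, so each genotype, treatment and assay had 1 library. No difference has a replicate check. The intervals below cover the counting error of reads and compare libraries, not genotypes or treatments.

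CK1 enzymes are monomeric serine/threonine kinases. CK1ε and CK1δ phosphorylate the PER proteins of the circadian clock, CK1ε also acts on Dishevelled in Wnt signalling, CK1α primes β-catenin for destruction, and the membrane-bound CK1γ kinases phosphorylate the Wnt co-receptor LRP6. CPEB4 binds cytoplasmic polyadenylation elements (CPEs), U-rich motifs in 3′-UTRs through which CPEB proteins repress or activate translation and change the length of the poly(A) tail.

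The 3′-UTR region with the most reads stands for a gene. For Csnk1e this was chr15:79417856-79419187 (mm10, minus strand, 1332 bases, in exon 11 of ENSMUST00000117786). It held 3 consensus CPEs (TTTTAT or TTTTAAT, written as DNA), and these were followed by 264, 170 and 150 bases up to the 3′ end of the region. Their surroundings, read from GRCm38.p6, and the polyadenylation hexamer nearest to the end are shown because in none of the other 5 genes did the region with the most reads have a consensus CPE so close to its end. Capitals mark the motif.
Csnk1e, CPE with 264 bases after it, chr15:79418108-79418137: ttttgttggtttTTTTATtattattattat
Csnk1e, CPE with 170 bases after it, chr15:79418014-79418043: ttctttcttttTTTTAATtaaagagcaaaa
Csnk1e, CPE with 150 bases after it, chr15:79417994-79418023: aagagcaaaactTTTTATtactttgtaatt
Csnk1e, hexamer with 23 bases after it, chr15:79417867-79417896: ttaatttgaagtAATAAAgtagaaaaggac
The closest relative, Csnk1d, had 1 consensus CPE in a region of 2158 bases, with 1660 bases after it, and Csnk1g2 had none in 695 bases. The CPE of Csnk1d, the last of 7 consensus CPEs of Csnk1g1 and the single hexamer of Csnk1g2 are shown for comparison.
Csnk1d, CPE with 1660 bases after it, minus strand, chr11:120963397-120963426: agaaatctgtctTTTTATtgtttctttctt
Csnk1g1, CPE with 401 bases after it, plus strand, chr9:66044591-66044620: gtgggaatcagTTTTAATtcatgtgtggat
Csnk1g2, hexamer with 44 bases after it, plus strand, chr10:80640710-80640739: tttaaaaaaaaaAATAAAagaaaagaaaaa

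The regions differed in their motifs. Only the mRNA strand was searched, and motifs were allowed to overlap. Csnk1e had 5 AUUUA pentamers, the core of AU-rich elements, and 4 TTTTGT motifs. Of 1323 genes whose region was within 20% of the length of Csnk1e, 70.3% had a consensus CPE, 26.6% had at least 3, and 13.4% had at least 5 AUUUA. Csnk1d had no AUUUA, whereas 91.9% of regions of like length had one. Csnk1a1 had 6 consensus CPEs in 2628 bases and 5 AUUUA, Csnk1g1 had 7 consensus CPEs in 5378 bases and 7 AUUUA, and Csnk1g2 had 1 AUUUA. Csnk1g3 had 2 consensus CPEs in 2385 bases and 8 AUUUA, a number reached by 13.7% of regions of like length. A wider set of CPE forms (TTTTACT, TTTTAAAT, TTTTAAGT and TTTTCAT) added 8 sites in Csnk1g1, 3 in Csnk1g3 and none in the other 4 genes. For these regions the authors' CPE prediction was repression for Csnk1e, Csnk1a1 and Csnk1g1, and was empty for Csnk1d, Csnk1g2 and Csnk1g3. Other regions of a gene could differ. A nested Csnk1a1 region of 871 bases, with 4 consensus CPEs, was predicted for activation, early activation and strong early activation besides repression. The prediction was empty for the nested Csnk1g1 region of 3444 bases.

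**Figure D1:**
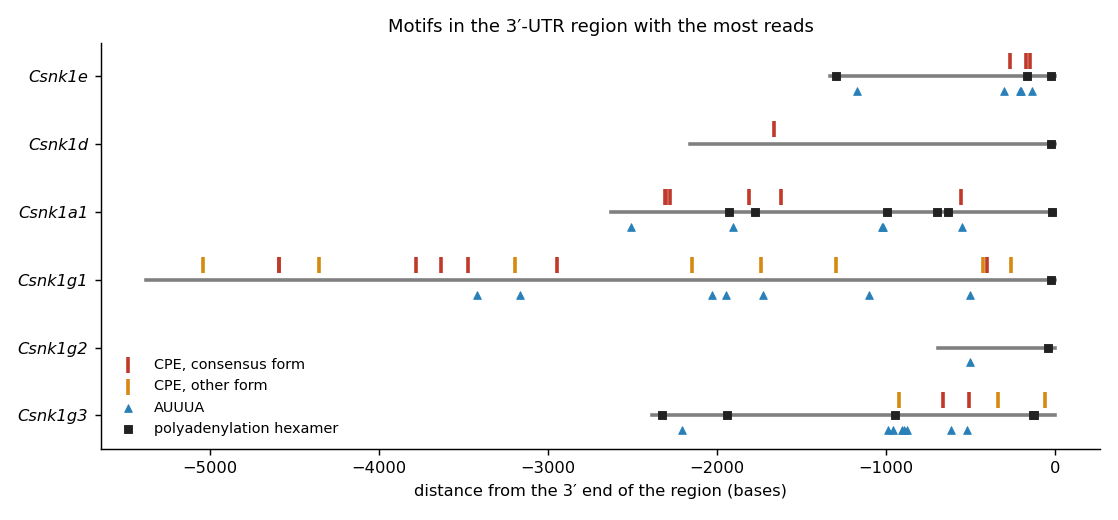
The 3′-UTR region with the most reads of each gene is drawn to scale as a grey line that ends at its 3′ end, with the distance from that end in bases. Red ticks are consensus CPEs, orange ticks other CPE forms, blue triangles AUUUA and black squares polyadenylation hexamers (AATAAA or ATTAAA). In these regions the 3 consensus CPEs of Csnk1e lie in the last 300 bases, where those of the other 5 genes have none. Shorter nested regions are not drawn.

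In the last 300 bases, a window set after the positions had been seen, Csnk1e had 3 consensus CPEs and 3 AUUUA. The regions with the most reads of the other 5 genes had neither motif there, although the wider CPE forms occurred in this window in Csnk1g1 and Csnk1g3. Shorter nested regions have other ends. The 871-base region of Csnk1a1, ending at chr18:61588304, holds a consensus CPE at 61588243-61588248 and an AUUUA at 61588154-61588158 in this window. The 3444-base region of Csnk1g1, ending at chr9:66043075, holds an AUUUA at 66043061-66043065 in this window. Of 7311 genes with a region of at least this length and 50 reads, 38.6% had a consensus CPE in the window and 3.35% had at least 3. An ATTAAA hexamer with 166 bases after it overlapped the middle CPE of Csnk1e. No stretch of a CK1 region matched another place in the genome over 100 bases or more at 95% identity. The longest weaker matches were 104 bases at 90.4% identity for Csnk1e and 290 bases at 93.8% for Csnk1g3. The Csnk1d region shared 63 bases with the antisense gene Gm28192, and whether the counting used strand is not given in the sources used here.

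Depth ran from 467696 to 2492300 3′-UTR reads per library, lowest in the KO RIPs, and levels are given in CPM, reads per 1000000 3′-UTR reads. Cpeb4 itself had 836 and 770 CPM in the WT RIPs against 257 and 367 in the KO RIPs, and 130 and 136 CPM in the WT Inputs against 52.0 and 52.6 in the KO Inputs. Its 3′-UTR reads in the KO libraries did not reach 0, and which part of the gene is deleted is not given in the sources used here. The WT over KO log2 ratio of Cpeb4 was 1.69 (untreated) and 1.07 (LPS) in the RIPs and 1.31 and 1.36 in the Inputs. Its RIP over Input log2 ratio was 2.67 and 2.50 in WT cells and 2.29 and 2.79 in KO cells. The Cpeb4 mRNA thus stood above Input in the KO RIPs too, and the reason was not tested. Macrophage markers, 9 of 9 of them detected, summed to 2542 to 3577 CPM in the Inputs, whereas T cell, B cell, NK cell, neutrophil, fibroblast and erythroid markers summed to at most 9.05 CPM per list. These other lists were only partly countable. A region was found for 4 of 5 T cell, 3 of 4 B cell, 1 of 3 NK cell, 1 of 5 neutrophil, 2 of 4 fibroblast and 2 of 3 erythroid markers. Endothelial markers summed to 7.53 and 7.54 CPM in the untreated Inputs and to 51.1 and 86.5 CPM after LPS, mostly from Kdr, and their part in the results was not tested. The 3′-UTR sums came to 48.9% (untreated) and 70.1% (LPS) of the library totals in the WT RIPs and to 27.3% and 31.8% in the KO RIPs. Scaling to library totals therefore raised the WT over KO log2 ratio of every gene in the RIPs by 0.84 (untreated) and 1.14 (LPS). Differences between genes in the same libraries do not depend on this choice.

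Csnk1e was a gene of middle to low level in the family. In the untreated Inputs its region had 59 reads (63.5 CPM) in WT and 89 reads (67.1 CPM) in KO. After LPS it had 54 reads (28.5 CPM) in the WT Input and 66 reads (43.9 CPM) in the KO Input. In CPM per kilobase of region, Csnk1d was the highest in both untreated Inputs, with 166 and 162, followed by Csnk1g2 (112 in both), Csnk1a1 (71.3 and 85.8) and Csnk1e (47.7 and 50.4). Csnk1g1 (10.8 and 14.6) and Csnk1g3 (5.42 and 8.54) were the lowest, and their intervals overlapped each other. The intervals of Csnk1a1 and Csnk1e overlapped in the WT Input, and those of Csnk1g2 and Csnk1a1 in the KO Input. After LPS Csnk1a1 led with 131 (WT) and 136 (KO), its interval above that of Csnk1d (107 and 105) in both genotypes and overlapping that of Csnk1g2 in the KO Input. Csnk1e was at rank 4 in each of the 4 Inputs. In such bulk libraries, fewer cells with an mRNA and less of it per cell cannot be told apart.

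In the RIPs the order was another one. The Csnk1e region had 193 reads (116 CPM) in the untreated WT RIP and 7 reads (15.0 CPM) in the untreated KO RIP. After LPS it had 153 reads (61.4 CPM) in the WT RIP and 17 reads (19.5 CPM) in the KO RIP. Per kilobase it was therefore at rank 4 of 6 in both WT RIPs and at rank 6 in both KO RIPs, where its level was 11.2 and 14.6 against 112 and 214 for Csnk1a1. The interval of Csnk1e overlapped those of both Csnk1g1 and Csnk1g3 in each KO RIP, so its rank there was not separated from theirs. In CPM its WT RIP values stood above both Inputs of the same treatment and its KO RIP values below them, the untreated ones by its choice. After LPS the intervals of RIP and Input were separate within each genotype. Across genotypes they overlapped, with 52.4 to 71.9 in the WT RIP against 34.5 to 55.9 in the KO Input. The KO RIP had 12.2 to 31.2 against 21.8 to 37.1 in the WT Input.

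**Figure D2:**
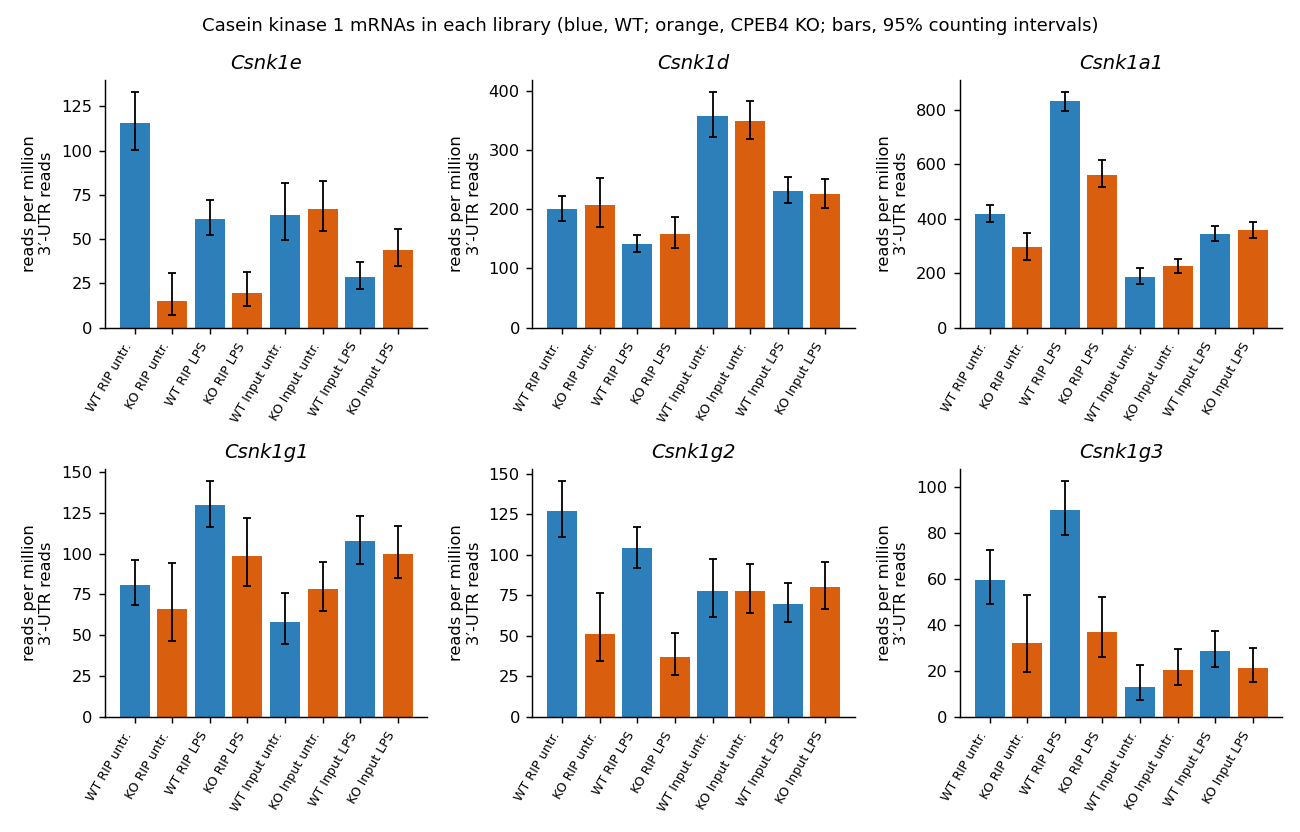
Each panel shows 1 gene, with its level in CPM in the 8 libraries. Blue bars are WT, orange bars are CPEB4 KO, and error bars are 95% Wilson intervals for counting error. All genes but Csnk1d were higher in both WT RIPs than in the KO RIPs, with separate intervals in both treatments for Csnk1e, Csnk1a1 and Csnk1g2, after LPS alone for Csnk1g3 and in neither for Csnk1g1. The intervals of WT and KO overlapped for Csnk1d in each pair.

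Dividing the WT RIP by the KO RIP set the antibody's recovery against cells without its target. A ratio was called where it was past 2-fold, its 95% interval left out 0 on the log2 scale and the pair had at least 10 reads. After LPS the log2 ratio was 1.58 for Csnk1e (interval 0.88 to 2.29), 1.46 for Csnk1g2 (0.94 to 1.98) and 1.25 for Csnk1g3 (0.73 to 1.78). These 3 of 6 genes were called higher in WT and none was called lower, while of 8310 genes tested 7.11% were called higher and 14.9% lower. The median was 0.91 for the 6 genes and -0.04 for all genes tested. Csnk1g2 had 259 reads (104 CPM) in the WT RIP and 32 reads (36.7 CPM) in the KO RIP. Csnk1g3 had 224 reads (89.9 CPM) and 32 reads (36.7 CPM).

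The other genes had smaller ratios after LPS. Csnk1a1, with 2070 reads (831 CPM) in the WT RIP and 490 reads (562 CPM) in the KO RIP, had a log2 ratio of 0.56 (0.42 to 0.70), which was short of 2-fold. The rule with the methods' p and log2 thresholds, described below, did call it higher, with 10.7% of all genes called higher and 15% lower. Csnk1g1 had 323 and 86 reads and a log2 ratio of 0.38 (0.04 to 0.72). Csnk1d had 352 reads (141 CPM) and 138 reads (158 CPM), and its log2 ratio of -0.17 (-0.45 to 0.11) did not differ from 0 beyond counting error. On the library totals 5 of 6 genes were called higher, all but Csnk1d at 0.97, in a comparison where 49.8% of all genes were then called higher and 1.14% lower.

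Csnk1e was set against each relative in the same RIPs. Its log2 ratio after LPS exceeded that of Csnk1d by 1.75 (0.99 to 2.51), a 3.37-fold difference, and that of Csnk1a1 by 1.02 (0.30 to 1.74), a 2.03-fold difference. It was 2.30-fold above that of Csnk1g1, with a log2 interval of 0.42 to 1.98. It was not separated from Csnk1g3 (0.33, -0.55 to 1.21) or Csnk1g2 (0.12, -0.76 to 0.996), so differences of up to about these bounds in either direction remain possible. Csnk1g2, without any consensus CPE in its region, and Csnk1e, with 3, were thus within counting error of each other.

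**Figure D3:**
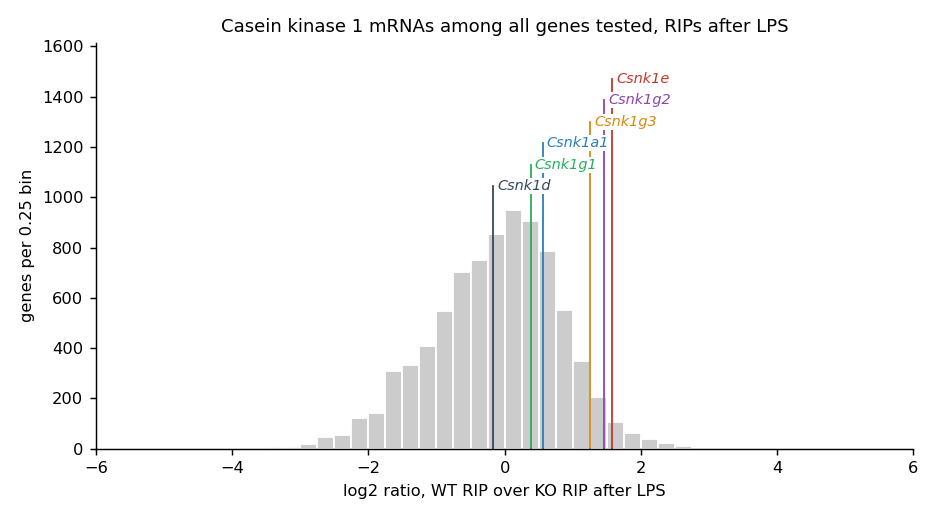
The histogram counts all 8310 tested genes by their log2 ratio of WT RIP over KO RIP after LPS, in bins of 0.25, and coloured lines mark the 6 CK1 genes. Csnk1e, Csnk1g2 and Csnk1g3 lie above 97.5%, 96.7% and 94.5% of the genes, and Csnk1d lies near the middle, above 44.6%.

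In the untreated RIPs the log2 ratio was 2.77 for Csnk1e (1.75 to 3.79), the value that led to its choice, and 1.26 for Csnk1g2 (0.66 to 1.86) from 212 reads (127 CPM) in WT and 24 reads (51.3 CPM) in KO. These were the 2 genes called higher, Csnk1e by choice, with 5.95% of 8064 genes called higher and 11.5% lower. Csnk1g3, with 99 and 15 reads, had a log2 ratio of 0.81 (0.05 to 1.57). Csnk1a1 (698 and 138 reads) had 0.50 (0.23 to 0.76), Csnk1g1 (135 and 31 reads) had 0.25 (-0.30 to 0.81) and Csnk1d (334 and 97 reads) had -0.06 (-0.38 to 0.27). On the library totals 5 of 6 genes were called higher here too, with 31.5% of all genes called higher and 0.942% lower. The LPS minus untreated difference of the ratio was -1.19 (-2.43 to 0.05) for Csnk1e, a description because of its choice. It was from -0.11 to 0.44 for the other 5 genes, and the intervals of all 6 genes held 0.

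Between the Inputs of the genotypes no CK1 gene was called in either treatment, where 1.22% of all genes were called higher in WT and 1.82% lower without LPS, and 1.47% and 1.5% with LPS. For Csnk1e the log2 ratio was -0.07 (-0.54 to 0.40) in the untreated Inputs and -0.62 (-1.14 to -0.11) after LPS. The latter was lower in WT, opposite to the RIPs, short of 2-fold, and below the ratios of Csnk1d, Csnk1a1, Csnk1g1 and Csnk1g3 beyond the interval of the difference. Subtracting the Input ratio from the RIP ratio gave an input-corrected log2 ratio after LPS of 2.202 for Csnk1e (1.33 to 3.07) and 1.66 for Csnk1g2 (1.03 to 2.29), and these 2 genes were called higher, against 8.07% of all genes called higher and 15.7% lower. Csnk1g3 had 0.85 (0.04 to 1.67), Csnk1a1 had 0.61 (0.40 to 0.83), Csnk1g1 had 0.28 (-0.18 to 0.73) and Csnk1d had -0.21 (-0.56 to 0.14). Without LPS the values were 2.84 for Csnk1e, 1.405 for Csnk1g3 and 1.26 for Csnk1g2, the 3 genes called higher, Csnk1e by choice, with 9.47% of all genes called higher and 11.8% lower.

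**Figure D4:**
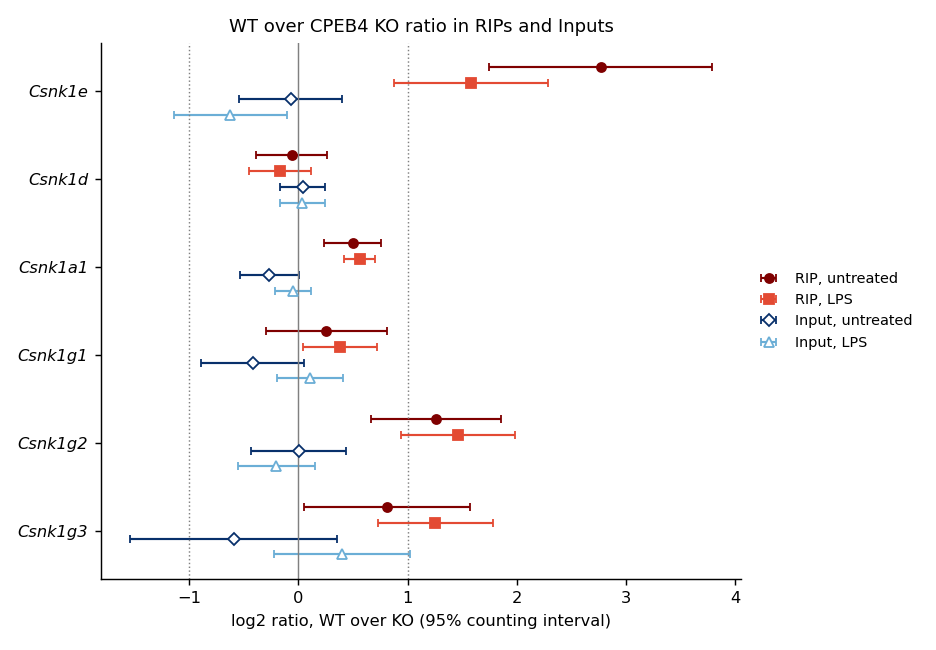
Points are WT over KO log2 ratios of each CK1 gene in the RIPs (filled) and Inputs (open), untreated or after LPS, with 95% counting intervals. Dotted lines mark 2-fold. The RIP points of Csnk1e and Csnk1g2 lie to the right of 1 in both treatments, whereas all Input points lie between -1 and 1.

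Recovery was also set against the Input of the same cells, with the reservation that only Inputs were depleted of ribosomal RNA. In WT cells after LPS, Csnk1g3 had a RIP over Input log2 ratio of 1.64 (1.21 to 2.06), Csnk1a1 of 1.27 (1.14 to 1.39) and Csnk1e of 1.09 (0.65 to 1.54). These 3 genes were called higher, against 21.6% of all genes called higher and 25.4% lower. Csnk1g2 had 0.57 (0.27 to 0.88), Csnk1g1 had 0.27 (0.01 to 0.52) and Csnk1d had -0.71 (-0.91 to -0.51). Untreated WT cells gave 2 genes called higher, Csnk1g3 with 2.10 and Csnk1a1 with 1.16, against 21.2% of all genes called higher and 19.8% lower, and Csnk1e had 0.85 there, from the reads of its choice.

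In the KO cells, which lack the target of the antibody, Csnk1e, Csnk1d, Csnk1g2 and Csnk1g1 had RIP over Input log2 ratios below 0 in both treatments. The interval of Csnk1g2 held 0 without LPS. That of Csnk1g1 held 0 in both treatments, at -0.21 (-0.78 to 0.36) untreated and -0.01 (-0.39 to 0.37) after LPS. After LPS Csnk1e had a RIP over Input log2 ratio of -1.11 (-1.86 to -0.36) and Csnk1g2 of -1.09 (-1.64 to -0.53), and both were called lower, against 9.04% of all genes called lower and 15.1% higher. Csnk1d had -0.50 (-0.79 to -0.22), short of 2-fold. Csnk1a1 had 0.65 (0.47 to 0.83) in the same libraries and Csnk1g3 had 0.79 (0.09 to 1.48). Without LPS Csnk1e alone was called lower, at -1.99 from the 7 reads that were part of its choice, against 7.75% of all genes called lower and 15.5% higher. Csnk1d had -0.74 (-1.05 to -0.43) there and Csnk1g2 had -0.55 (-1.18 to 0.08). On library totals the RIP over Input log2 ratios of all genes in the KO cells shifted by -0.77 (untreated) and -0.68 (LPS), which turned that of Csnk1a1 below 0 in both treatments. Csnk1e, Csnk1d and Csnk1g2 were then called lower in each treatment, with 32.9% and 32.6% of all genes called lower and 4.83% and 4.86% higher.

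Csnk1a1 was the highest CK1 mRNA in the WT RIP after LPS, and the deposited peak scores were highest for it. The score is that of the top MACS peak over a region, called in a RIP against the matching Input, or 0 without a peak. For the WT RIP after LPS it was 1502.55 for Csnk1a1, 532.26 for Csnk1g3, 248.9 for Csnk1e, 155.47 for Csnk1g2, 100.51 for Csnk1g1 and 0 for Csnk1d. For the untreated WT RIP, Csnk1a1 had 100.95 and the other 5 genes had 0, Csnk1e among them. No CK1 region had a peak in either KO RIP.

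Distinct regions of a gene did not all go the same way. Csnk1e had another region, chr15:79422481-79423937 (1457 bases, in exon 9 of ENSMUST00000122044), with no CPE, no AUUUA and no TTTTGT. It had 3 and 3 reads in the WT RIPs, 1 and 5 in the KO RIPs, and 12, 15, 7 and 8 in the Inputs (WT and KO untreated, then WT and KO after LPS). The WT and KO RIPs together had under 10 reads there in each treatment, too few for a call. Its WT RIP over Input log2 ratio after LPS was -1.39, which was 2.49 below that of the main region (difference interval 0.70 to 4.27). The reads of Csnk1e in the WT RIPs were thus nearly all in the region with the 3 CPEs. A region of 22 bases at the start of that region had at most 6 reads in any library.

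Csnk1a1 had 8 distinct regions on chromosome 18, several of them nested. The longest, chr18:61587434-61590061, stands for the gene, and a separate region upstream, chr18:61580493-61582262 (1770 bases, in exon 9 of ENSMUST00000163205), held 2 consensus CPEs. The separate region had 51 reads in the untreated WT RIP and 34 in the untreated KO RIP, and 45 and 27 after LPS. Its WT over KO log2 ratio was -1.26 (-1.88 to -0.64) without LPS and -0.80 (-1.48 to -0.12) with LPS, below the main region by 1.76 (1.09 to 2.43) and 1.36 (0.67 to 2.05). The shift of 1.14 on library totals would turn the sign of the value with LPS but leaves these differences as they are. The separate region was above Input in the RIPs of both genotypes, and more so in KO. In KO its RIP over Input log2 ratios were 2.83 and 2.59, from 34 and 27 RIP reads against 13 and 7 Input reads. In WT they were 0.95 and 1.04, from 51 and 45 RIP reads against 14 and 16 Input reads. Its log2 ratio of LPS over untreated was -0.85 in the WT Inputs, -0.99 in the KO Inputs, -0.76 in the WT RIPs and -1.22 in the KO RIPs, opposite in sign to the main region in each pair. The main region exceeded it by 1.65 (0.38 to 2.92) in the KO Inputs, the least, and by 2.14 (1.38 to 2.91) in the KO RIPs, the most. The 2107-base region of Csnk1d and the 3444-base region of Csnk1g1 lie inside the main ones and had WT over KO log2 ratios after LPS of -0.18 and 0.33.

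The LPS change of the Inputs separated the family. In the WT Inputs Csnk1e was called lower after LPS, with a log2 ratio of -1.16 (-1.68 to -0.63), and Csnk1g3 was called higher, with 1.05 (0.18 to 1.92) from 12 and 54 reads. Of all genes 11.7% were called higher and 15.4% lower, so a call in either direction was common. Csnk1a1 (0.88, 0.64 to 1.12) and Csnk1g1 (0.87, 0.44 to 1.30) were higher after LPS but short of 2-fold, Csnk1d had -0.63 (-0.84 to -0.43) and Csnk1g2 had -0.16 (-0.58 to 0.25). With TMM scaling, which raised all these values by 0.14, Csnk1a1 and Csnk1g1 were called higher as well. In the KO Inputs no CK1 gene was called, against 12.1% of all genes called higher and 18.5% lower. Csnk1e had -0.61 (-1.06 to -0.15) there, Csnk1d -0.63 (-0.83 to -0.43) and Csnk1a1 0.67 (0.46 to 0.87).

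The same change was then read in the RIPs. In the WT RIPs the log2 ratio of LPS over untreated was -0.91 for Csnk1e, -0.51 for Csnk1d, -0.29 for Csnk1g2, 0.59 for Csnk1g3, 0.67 for Csnk1g1 and 0.99 for Csnk1a1. On library totals these values were higher by 0.52, so that Csnk1e stood at -0.39, Csnk1d and Csnk1g2 turned above 0, and 3 genes (Csnk1a1, Csnk1g1 and Csnk1g3) were called higher with 20.5% of all genes. On the 3′-UTR sums none of the 6 was called, against 10.6% of all genes called higher and 19.7% lower. The values of Csnk1e divide by the untreated RIP reads on which it was chosen, so they are a description and were not set against its relatives. In the KO RIPs no gene was called either, against 11% of all genes called higher and 18% lower. The LPS change of WT RIP over Input was 0.24 for Csnk1e and rests on the same reads. The LPS change of the WT over KO ratio in the Inputs was -0.55 for Csnk1e, and its interval of -1.25 to 0.15 held 0.

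**Figure D5:**
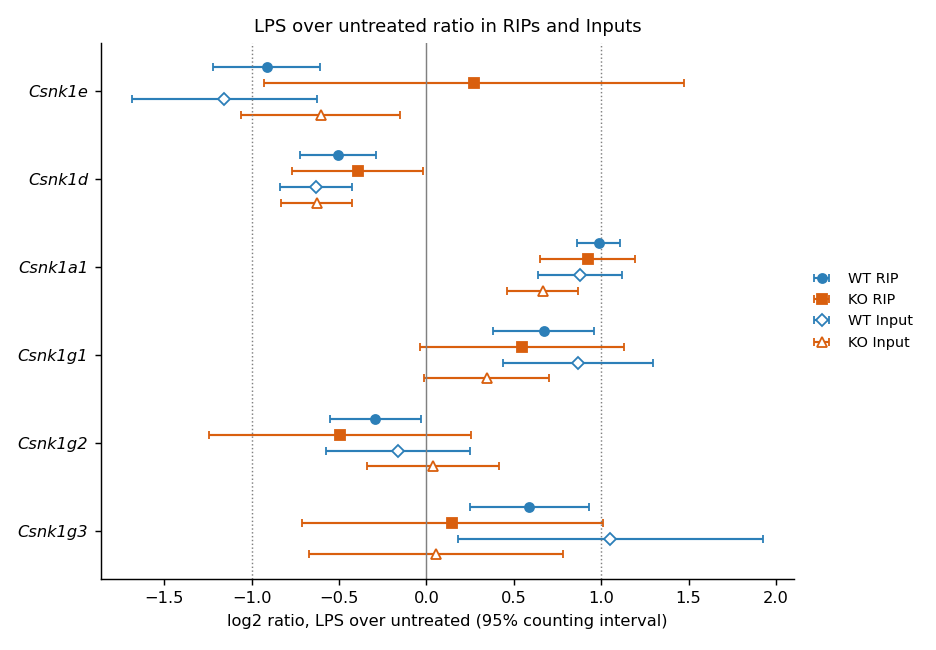
Points are log2 ratios of LPS over untreated for each CK1 gene in the RIPs (filled) and Inputs (open) of WT (blue) and CPEB4 KO (orange) cells, with 95% counting intervals and dotted lines at 2-fold. On this scaling to 3′-UTR sums, the main region of Csnk1a1 lies to the right of 0 and Csnk1d to the left in all 4 pairs (on library totals Csnk1d reaches 0.01 in the WT RIPs), and Csnk1e lies to the left in 3 of them.

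Genes that work with CK1 were followed as lists. Of 10 clock proteins that CK1 acts on or that act with them, 9 were tested in the RIPs after LPS, where none was called higher (7.11% of all genes) and 1 was called lower (14.9% of all genes), Nr1d1 with 7 reads in each genotype and a log2 ratio of -1.52. On library totals, an alternative added for the lists after the data had been seen, the call of Nr1d1 was lost and 6 of the 9 were called higher, with 49.8% of all genes. The median of the list was 0.07, beside -0.04 for all genes. Per3 was called lower after LPS in both Inputs, from 39 to 9 reads in WT and from 53 to 4 reads in KO, with log2 ratios of -3.03 and -3.61. It was the 1 gene called lower of 6 tested there, beside 15.4% (WT) and 18.5% (KO) of all genes. In each genotype 1 gene of the list was called higher, beside 11.7% and 12.1% of all genes. Of 12 Wnt and β-catenin proteins, 10 were tested in the RIPs after LPS with none called on 3′-UTR sums and 5 called higher on library totals, against the same 7.11% and 49.8% of all genes. In the untreated RIPs 1 of 11 was called higher, Lrp6, the co-receptor that CK1γ phosphorylates, against 5.95% of all genes, and on library totals 5 were, against 31.5%. Lrp6 had 625 and 82 reads in the untreated RIPs, a log2 ratio of 1.08 (0.75 to 1.41) there and of 0.63 (0.22 to 1.04) after LPS. It was also called lower after LPS in both Inputs, with log2 ratios of -1.55 in WT and -1.88 in KO. Of 10 genes of this list tested there, 1 (WT) and 3 (KO) were called lower, beside 15.4% and 18.5% of all genes. None was called higher, beside 11.7% and 12.1% of all genes.

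The FAM83 proteins anchor CK1 in the cell and DDX3X binds and activates CK1ε. Of the 9 genes of this list, 2 were tested in the untreated RIPs and 1 after LPS, with no call, since most Fam83 genes had hardly any reads. On library totals the gene tested after LPS, Ddx3x, was called higher, as were 49.8% of all genes. Fam83f, 1 of 2 genes tested there, was called lower after LPS in both Inputs, from 10 to 2 reads and from 20 to 1. Of all genes 15.4% (WT) and 18.5% (KO) were called lower. Of 5 related kinases of the CK1 group (Ttbk and Vrk genes), 3 were tested in the RIPs after LPS. None was called on 3′-UTR sums, beside 7.11% of all genes called higher and 14.9% lower. On library totals 2 were called higher, beside 49.8% of all genes. The subunits of casein kinase 2, an unrelated kinase of similar name, were all tested after LPS. Csnk2b was called lower in WT, with 18 and 13 reads and a log2 ratio of -1.08, beside 14.9% of all genes, and neither Csnk2a1 nor Csnk2a2 was called. On library totals the call of Csnk2b was lost, and Csnk2a1 and Csnk2a2 were called higher, beside the same 49.8% of all genes.

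The genes most like Csnk1e over the 8 libraries were found by the root mean square difference of centred log2(CPM + 1) values among 8065 genes with at least 50 summed reads. This likeness includes the untreated RIPs and is a description. The nearest was Zdhhc8, a palmitoyltransferase, at 0.27, with 138 and 8 reads in the untreated RIPs and 139 and 19 after LPS (WT and KO). Cpped1, a phosphatase, Ncbp1, the large subunit of the nuclear cap-binding complex, Siva1, a pro-apoptotic protein, and Rad1, a subunit of a DNA damage checkpoint clamp, followed at 0.29, 0.31, 0.32 and 0.36. Rad1 had few reads, 17 and 0 in the untreated RIPs and 9 and 1 after LPS (WT and KO). Within the family Csnk1g2 was the nearest, at rank 44, and Csnk1d was at rank 1397.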

How the data were processed

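Libraries of 8 groups (WT or CPEB4 KO, RIP or Input, untreated or LPS) were analysed, 1 library each. Per the labels and the study's methods, the authors aligned reads to mm10 with Bowtie2 2.2.2, removed duplicates and counted reads over annotated 3′-UTR regions, and the deposited counts were the same in the 4 tables. The deposited RPKM values divide these counts by region length and a library total, which was recovered from them (1714630 to 3866559 reads). The deposited score is the highest MACS 1.4.2 peak of a RIP against its Input. The tables also hold the authors' p-values and log2 fold changes between RIP and Input, which were not used. Of 31117 rows, 495 without a symbol (0.902% to 1.04% of the reads of a library) were left out.

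Counts of the region with the most reads were scaled to the 3′-UTR sum (467696 to 2492300, so that 1 read was worth from 0.401 to 2.14 CPM) after adding 1 read. Log2 ratios carry 95% normal intervals and levels carry Wilson intervals, both for counting error only. Reads in overlapping regions count more than once in the sums. With 1 library per group, edgeR's quasi-likelihood test could not be fitted. The procedure was tested on simulated reads drawn with counting error alone, so that test says nothing about variation between libraries. Motifs were read from GRCm38.p6 with pysam 0.24.0, where the consensus CPE count equalled the deposited one in 98.1% of 26892 regions, and copies were searched with BLAST 2.17.0. Exons were taken from GENCODE, where no exon of the named transcript that holds the region was found for Csnk1g2 and Csnk1g3. Whether these transcripts are in that release was not checked. Python 3.11.15, numpy 2.4.6, scipy 1.17.1, pandas 2.3.3 and edgeR 4.0.16 were used.

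The named genes were the 6 members, Cpeb4, at most 6 genes of a list that were called in a WT over KO RIP comparison or in the LPS change of both Inputs, and the 5 genes most like Csnk1e. The members and lists were chosen with earlier results of these data known. The alternatives were other scalings, 0.5 reads added, other read minimums, 2-fold without the interval, other regions, a chi-square rule with the methods' p and log2 thresholds but not their RPKM scale or peak-score criterion, and edgeR's exact test with a preset variation.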

Additional observations from a re-analysis of the deposited data

How the results depend on the processing

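No paired analysis was possible because each genotype, treatment and assay had 1 library, and the replicate numbers were lanes summed in a column; for the same reason no library could be left out. The values below are numbers of CK1 genes called. On library totals they were 5 in the RIPs of WT over KO (untreated and LPS, from 2 and 3), 5 and 5 input-corrected (from 3 and 2), 3 in RIP over Input of untreated KO cells (from 1), 3 and 1 in the LPS change of the WT and KO RIPs (from 0 and 0) and, by the interval alone, 1 in the LPS change of the WT over KO RIP ratio (from 0; Csnk1a1 at 0.36, short of 2-fold). Of all genes, 31.5% and 49.8% were then called higher in the RIPs of WT over KO. In RIP over Input of untreated KO cells 32.9% were called lower. In the LPS change of the WT and KO RIPs 20.5% and 14.8% were called higher. Shares over all genes were not computed for the input-corrected values on this scaling or for the summed regions below. TMM gave 4 in the LPS change of the WT Inputs (from 2; 3 higher and 1 lower, with 14% and 12.6% of all genes). It gave 2 and 1 in that of the WT and KO RIPs (all higher, with 16.8% and 15.8% of all genes). The median of ratios gave 1 and 1 there (both higher, with 14.3% and 14.4% of all genes). A rule with the p and log2 thresholds of the methods, run on 3′-UTR sums in both directions without their RPKM scale and peak-score criterion, gave 5 and 5 in RIP over Input of WT cells (from 2 and 3; 4 higher and Csnk1d lower in each, with 23.6% and 25.3% of all genes higher and 21.4% and 28.1% lower), 2 in untreated KO cells (from 1; both lower, with 9.04%), 4 and 2 in the LPS change of the WT and KO Inputs (from 2 and 0; equal numbers higher and lower, with 13.7% and 14.5% higher and 16.6% and 20.2% lower), and 5 and 1 in that of the WT and KO RIPs (3 and 1 higher, with 13.9% and 12.2%, and 2 and 0 lower, with 22.2% and 16.9%). With a variation of 0.4 set in advance, the exact test in edgeR called 0 CK1 genes in every comparison, and over all genes it called 0 of 8064 in the untreated RIPs and 1 of 8310 after LPS. Summed regions gave 1 in RIP over Input of KO cells after LPS (from 2) and, by the interval alone, 1 in the LPS change of the WT over KO RIP ratio, which was Csnk1e at -1.36, where the reads of its choice enter.

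Taking the longest region in place of the one with the most reads turned Csnk1e to its sparse other region. Its log2 values then reversed to -0.83 (untreated) and -2.10 (LPS) in WT over KO of the RIPs, -2.54 (untreated) and -1.39 (LPS) in RIP over Input of WT cells and 0.20 in that of KO cells after LPS, and -1.05 and -1.59 input-corrected. Csnk1e minus Csnk1d, Csnk1a1 and Csnk1g1 in the RIPs after LPS reversed to -1.93, -2.66 and -2.48, and Csnk1e was below all 5 relatives (from above 3). The numbers called became 1 in the untreated RIPs, 1 input-corrected after LPS, and 0 and 1 in RIP over Input of KO cells. Shares over all genes were not computed with the longest regions. With at least 200 summed reads, 3 of the 5 genes most like Csnk1e were among the nearest 5 again. Adding 0.5 reads, read minimums of 50 or 0, 2-fold alone and scaling to the sum over distinct regions moved none of the counts by over 1.5 times. Depth limits the KO RIPs most, where 3 reads are 6.41 CPM without LPS and 3.44 CPM with LPS.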
